A study of Homo sapiens with 6 samples.

Results

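MUC5B and the other mucin genes of A375 melanoma cells are described here, in cells depleted of the secreted gelatinase MMP9 and in their controls. Members were chosen by symbol, as listed genes named MUC followed by a number and optional letters, with pseudogenes left out. The rule found 7 of 18539 listed genes: MUC1, MUC5B, MUC12, MUC13, MUC15, MUC19 and MUC20. MUC5B was singled out beforehand because its level differed so much between these same libraries, so its values are a description with no test, and it is left out of every count of called mucins. The other 6 were picked by name alone.

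A375 is an established human malignant melanoma line. Both groups had received pLKO.1 lentivirus with polybrene and 2 weeks of puromycin at 2 µg/ml, and were grown in DMEM with 10% fetal bovine serum. The shControl group (3 libraries) carried a control hairpin and the shMMP9 group (3 libraries) a hairpin against the MMP9 coding region. A single hairpin was used against MMP9, the labels do not say whether replicates were separate cultures, and p-values therefore measure the spread between these libraries, which may be technical.

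Mucins are very large glycoproteins whose central regions, rich in serine, threonine and proline, are densely covered with O-linked sugars. The gel-forming mucins, among them MUC5B and MUC19, are secreted and polymerise through ends related to von Willebrand factor. They make mucus in airways, salivary glands and other wet epithelia. The membrane mucins, among them MUC1, MUC12, MUC13 and MUC15, stay on the cell surface with a short cytoplasmic tail. None is known as a marker of melanocytes.

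Levels are scaled counts, that is, gene counts brought to a common upper quartile in every library. Library totals over listed genes ran from 21854125 to 28005530 estimated reads. The hairpin's target, MMP9, had a mean of 26.4 ± 2.18 with the control hairpin against 15.9 ± 1.31 with the MMP9 hairpin (SD, n = 3), with no overlap between groups (log2 difference -0.69, adjusted p = 1.25e-05, limma). Among melanocyte lineage markers, 10 of 12 were listed, TYR and DCT were not, and the pigment gene PMEL, named after its values were seen, was low in both groups (1.70 ± 0.186 and 1.76 ± 0.274). The summed level of the listed lineage markers was 424.0 to 461.8 in shControl and 826.9 to 910.6 in shMMP9, and 4 of 8 tested rose and 2 fell (all genes tested, 25.0% rose and 32.5% fell). Among these calls are the rise of SLC45A2 and the fall of GPR143, both named after their values were seen. SLC45A2 passed the filter on low counts through shMMP9 alone and GPR143 through shControl alone, the group where each is high. SOX10, a neural crest transcription factor, rose from 377.7 ± 18.4 to 784.7 ± 40.6, and made up most of that sum. The calcium-binding protein gene S100B rose from 9.46 ± 0.715 to 28.1 ± 1.35 and the transcription factor gene PAX3 from 12.1 ± 0.257 to 18.2 ± 1.53, while MITF, the melanocyte master regulator, fell from 35.5 ± 2.48 to 27.7 ± 0.876. The part of these changes in the mucin results was not tested. In bulk RNA, a change in the number of cells that make a transcript and a change in the RNA per cell cannot be told apart.

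The tandem repeats that carry the sugars also shape how reads can be assigned, so the repeated stretches of the mucins with the highest read counts among repeat-rich members are shown. Both come from GENCODE 29 transcripts (GRCh38). In MUC1 the capitals mark the 20 bases of the stretch that occur most often in the transcript, 41 times. In MUC5B no 20 bases of the stretch occur more often than the whole, and the capitals mark its first 20. The MUC5B stretch of 87 bases lies in exon 31 of 49, which is 10893 bases long, first at chr11:1243189-1243275 on the plus strand. It occurs 5 times in the transcript of 17911 bases, with neighbouring copies starting 1671 to 2199 bases apart. The MUC1 stretch of 60 bases, first at chr1:155191821-155191880 on the minus strand, occurs 19 times in a transcript of 4170 bases, with copies from 60 to 240 bases apart.
MUC5B: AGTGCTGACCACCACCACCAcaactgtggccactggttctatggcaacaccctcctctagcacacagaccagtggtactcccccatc
MUC1: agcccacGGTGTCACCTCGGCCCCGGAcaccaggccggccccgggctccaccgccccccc

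Repeats within a gene do not by themselves move reads to another gene, but sequence shared between genes can. Of the 50-base words of the longest MUC5B transcript, 29.2% occurred more than once within it, and 2.30% were shared with another gene on either strand. The shared words lay in MUC5B-AS1 (344 words), an antisense gene inside MUC5B, and in the neighbouring mucin gene MUC5AC (66 words). Neither gene is listed, and since the strand setting is not given in the sources used here, reads of MUC5B and MUC5B-AS1 cannot be told apart. MUC1 and MUC12 repeated 42.4% and 61.5% of their own words and shared none with other genes, and MUC13 had no repeated and no shared word. In MUC15, 2.57% of words were shared, all with ANO3, which overlaps it. MUC20 was the exception, with 69.1% of its words shared with the pseudogene MUC20P1 or the overlapping transcript MUC20-OT1, so its counts are uncertain.

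The MMP9 hairpin target, read from the labels, is given below with the longest run that it shares with MUC5B in capitals, 8 of its 21 bases. The full target occurred in 1 annotated transcript, that of MMP9, and in 0 mucin transcripts. The longest runs it shared with the 7 mucin transcripts, on either strand, were 6 to 10 bases.
Hairpin target: catTCAGGGAGacgcccattt

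MUC5B (ENSG00000117983.17, chromosome 11, 1223066 to 1262172, plus strand, GRCh38) had the largest log2 difference between the groups among the mucins on the deposited scale, although the ratio for MUC19, given below, is farther from 1 when 1 read is taken off every value. Its scaled counts in the 3 shControl libraries were 3.35, 3.43 and 3.51, and those in the 3 shMMP9 libraries were 47.7, 47.5 and 54.2. These values rest on 94, 105.5 and 94 estimated reads in shControl and on 1419.7, 1199 and 1467 in shMMP9. The groups were far apart, and the SD within each (0.0800 and 3.80) was small beside the gap. The ratio of means, shMMP9 over shControl, was 14.5, and the difference of log2(scaled count + 1) was 3.52 (SE 0.0853, 95% interval 3.33 to 3.70). That scale understates the change of a gene this low in the control: the difference was 3.76 with a pseudocount of 0.25, 2.85 with one of 4 and 3.85 by limma-voom. Without any 1 library it lay between 3.46 and 3.55. The SE and interval above give the spread between these libraries only and are no test, as MUC5B was picked by this difference. By mean level, MUC5B stood above 34% of listed genes in shControl and above 76.9% in shMMP9. These ranks are by scaled count, not per length, and the longest MUC5B transcript has 17911 bases. Of all 17194 genes tested, 0 had a larger log2 difference, which is how it was picked and is no separate finding.

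**Figure D1:**
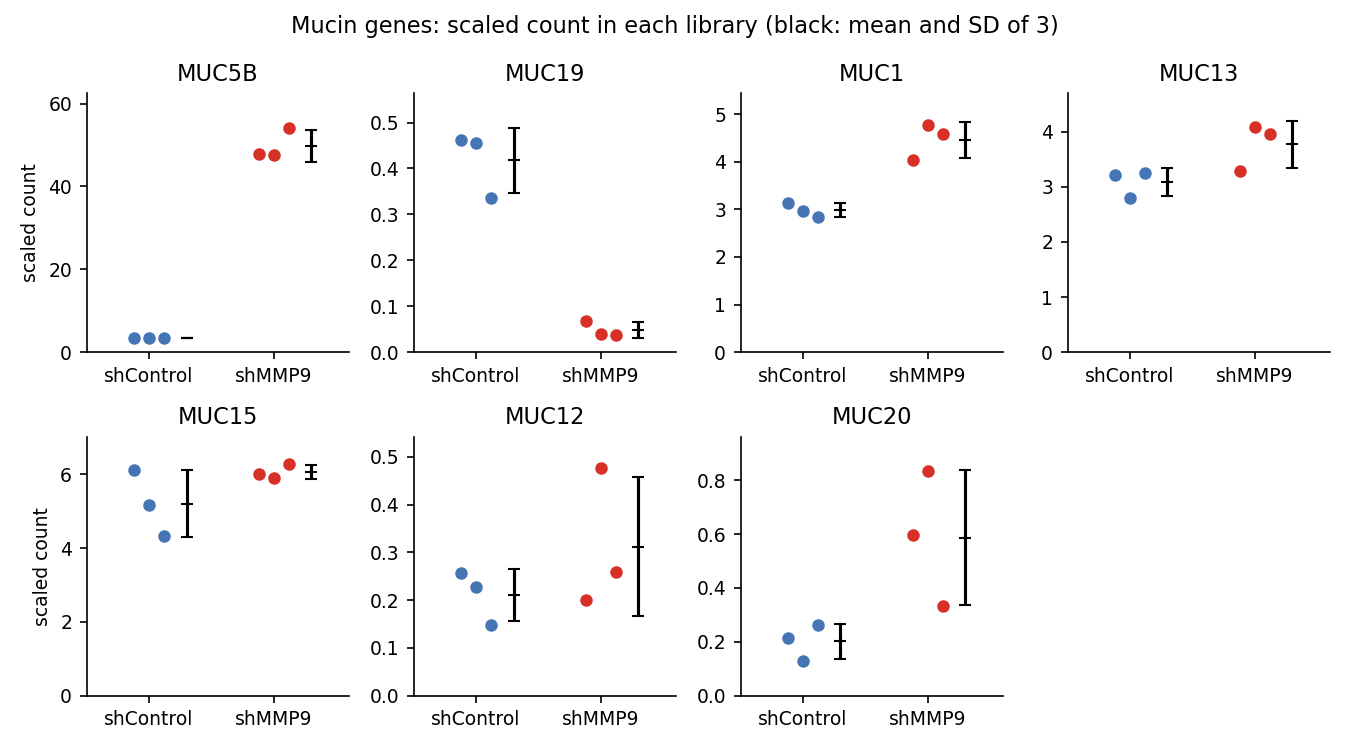
Scaled count (y axis, linear, from 0) of each of the 7 mucins in the 3 shControl (blue) and 3 shMMP9 (red) libraries, with the mean and SD in black. MUC5B lies at 3.35 to 3.51 in shControl and at 47.5 to 54.2 in shMMP9, while MUC19 goes the other way and MUC12 and MUC15 overlap between groups.

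MUC19, the other gel-forming mucin listed (chromosome 12, 40393395 to 40570832), went in the opposite direction at a far lower level. Its scaled counts were 0.463, 0.455 and 0.336 in shControl and 0.0672, 0.0397 and 0.0369 in shMMP9, so the groups did not overlap. They correspond to 13, 14 and 9 estimated reads in shControl against 2, 1 and 1 in shMMP9. The lowest value in every library equals 1 read, and values at 1 read outnumber those at 2 in every library, so a value of 1 may stand for no read at all. Summed over libraries and scaled for depth, the ratio of shMMP9 to shControl was 0.116 (exact 95% interval 0.0300 to 0.323, counting error only), or 0.0316 (0.000777 to 0.189) with 1 read taken off every value. MUC19 did not pass the filter on low counts. In the fit without that filter its log2 difference was -0.44 (adjusted p = 0.00593, limma). Every listed gene reached at least 11 estimated reads in at least 1 library, and MUC19 did so only in shControl. Its intervals and p-value do not allow for this.

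Among the membrane mucins, MUC1, which carries the repeats shown above and extends far from the cell surface, rose. Its scaled counts were 3.14, 2.96 and 2.84 in shControl and 4.03, 4.76 and 4.58 in shMMP9. Every shMMP9 library lay above every shControl library. The log2 difference was 0.45 (SE 0.118, 95% interval 0.20 to 0.71, adjusted p = 0.00486, limma), and the ratio of means was 1.5. The adjusted p was between 0.00162 and 0.0208 under all other settings.

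MUC13, a membrane mucin best known from the gut lining, had 3.21, 2.79 and 3.25 in shControl and 3.29, 4.08 and 3.95 in shMMP9. The groups did not overlap, by a margin of 3.25 against 3.29, and the log2 difference of 0.22 did not pass the test (95% interval -0.04 to 0.49, adjusted p = 0.139, limma). MUC15, a heavily glycosylated membrane mucin, had 6.13, 5.17 and 4.33 in shControl and 6.01, 5.91 and 6.28 in shMMP9. Its groups overlapped, and the spread lay mostly in shControl (SD 0.900 against 0.192). The log2 difference of 0.20 did not pass the test (95% interval -0.07 to 0.46, adjusted p = 0.194, limma).

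MUC12 and MUC20 were near the lower limit of what this depth can show. MUC12, a membrane mucin of the colon, had 4 to 7.2 estimated reads per library in shControl and 6 to 12 in shMMP9, with overlapping groups and a ratio of summed reads of 1.43 (exact 95% interval 0.759 to 2.82). MUC20, a kidney-expressed mucin, had scaled counts of 0.214, 0.130 and 0.261 in shControl and 0.597, 0.833 and 0.332 in shMMP9. Its groups did not overlap, and the ratio of summed reads was 2.94 (exact 95% interval 1.66 to 5.46, counting error only). Neither passed the filter. Without it, the log2 difference was 0.11 for MUC12 (adjusted p = 0.479, limma) and 0.39 for MUC20 (adjusted p = 0.0277, limma). MUC12 and MUC20 reached the 11 estimated reads that every listed gene has in at least 1 library only in shMMP9. Their intervals and p-values do not allow for this. MUC20-OT1, the noncoding transcript that shares sequence with MUC20, stood at 8.97 ± 0.279 in shControl and 7.89 ± 0.808 in shMMP9, and its log2 difference of -0.17 did not pass the test (adjusted p = 0.175, limma).

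Thus 4 of 7 mucins passed the filter. Of the 3 besides MUC5B, 1 rose and 0 fell in the limma test. The count of falls was also 0 at an unadjusted p under 0.05 and 0 by limma-voom. Over all genes tested, 57.5% were called at an adjusted p under 0.05, with 25.0% rising and 32.5% falling, and 1 call among 3 is no result about mucins as a family. Besides MUC5B, the groups did not overlap for MUC1, MUC13, MUC19 and MUC20, and this was so for 60.7% of all listed genes. The other 10 mucin symbols annotated in GENCODE 29, among them MUC2, MUC4, MUC5AC, MUC6 and MUC16, are not listed and were not analysed here.

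Levels can be compared between genes only per length. In scaled counts per kb of exon, MUC15 was highest in shControl (1.46 ± 0.253), followed by MUC13 (0.881 ± 0.0717), MUC1 (0.631 ± 0.0318) and MUC5B (0.184 ± 0.00430). MUC20, MUC19 and MUC12 followed at 0.0474 or less, and MUC19 and MUC12 were the only neighbours in this order whose libraries overlapped. In shMMP9, MUC5B was highest (2.68 ± 0.204), ahead of MUC15 (1.71 ± 0.0540), MUC13 (1.08 ± 0.122) and MUC1 (0.945 ± 0.0806). There MUC13 and MUC1 overlapped. MUC5B thus went from rank 4 to rank 1, and the order in both groups was the same with the longest transcript as the length. The levels are not corrected for repeats, which hold 42.4% of the 50-base words of MUC1, 29.2% in MUC5B and 0% in MUC13 and MUC15. As the counting method is not given, whether reads in repeats were lost is unknown, and the order may depend on it.

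**Figure D2:**
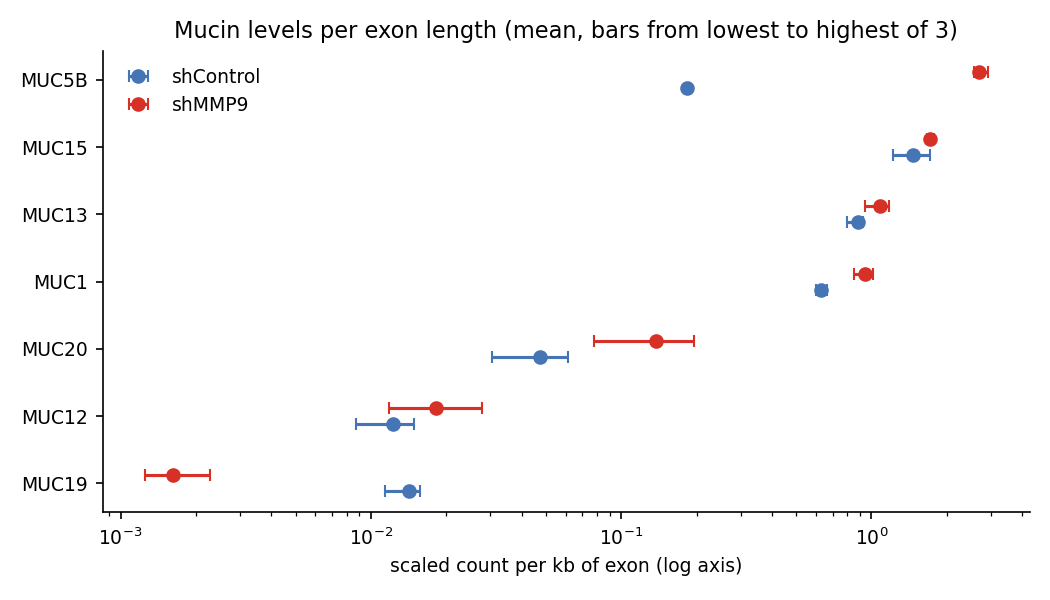
Scaled count per kb of exon (x axis, logarithmic) of the 7 mucins in shControl (blue) and shMMP9 (red), as the mean of 3 libraries with bars from the lowest to the highest. MUC5B moves from 0.184 to 2.68 and passes MUC15, MUC13 and MUC1, which stay within 0.631 to 1.71.

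The mucins together held 470.2, 466.5 and 393 estimated reads in the shControl libraries and 1842.5, 1605 and 1885 in the shMMP9 libraries. MUC5B accounted for 22.2 ± 1.99% of them in shControl and for 76.5 ± 1.63% in shMMP9. These shares are of reads and are not corrected for length. MUC5B has 18598 bases of exon, against 3499 to 4717 for MUC13, MUC15 and MUC1. MUC12 and MUC19 are also long but hold few reads. Without MUC5B the summed scaled count was 12.1 ± 1.15 in shControl and 15.2 ± 0.961 in shMMP9 (SD, n = 3).

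MUC5B lies in a cluster of gel-forming mucin genes on chromosome 11, in the order MUC6, MUC2, MUC5AC and MUC5B, of which only MUC5B is listed. No listed gene around it differed as much, but this was fixed beforehand, as MUC5B was picked for the largest difference of all genes tested. Of the 10 listed genes nearest on each side, all 20 were tested, 6 rose and 8 fell, and the median log2 difference was -0.14. Over all genes tested 25.0% rose and 32.5% fell, with a median of -0.05. The range over the 20 neighbours was -0.74 to 1.25. TOLLIP, an inhibitor of Toll-like receptor signalling and the nearest, 12.2 kb away, rose by 0.30 (adjusted p = 0.00828, limma), from 26.2 ± 2.52 to 32.6 ± 3.12. On the other side, beyond the unlisted mucins, the nearest was AP2A2, a clathrin adaptor subunit 210.8 kb away, with a log2 difference of -0.18 (adjusted p = 0.0355, limma). The AP2A2 call was lost without shControl replicate 2 or 3 or shMMP9 replicate 1 or 2 (adjusted p = 0.107 to 0.148) as well as under both other scalings (0.130 and 0.151) and without a variance trend (0.0906). The largest rise was that of IFITM10, 470.2 kb away, from 1.04 ± 0.216 to 3.84 ± 0.379. AC068580.4, which overlaps IFITM10 and CTSD so that their reads may be split, rose by 1.15, and the lysosomal protease gene CTSD rose by 0.36. The phosphatase gene DUSP8 fell by 0.74 and PIDD1, a p53-induced death-domain gene, fell by 0.61. At 8 to 17 estimated reads per shMMP9 library, DUSP8 would not have passed the low filter through shMMP9 alone.

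**Figure D3:**
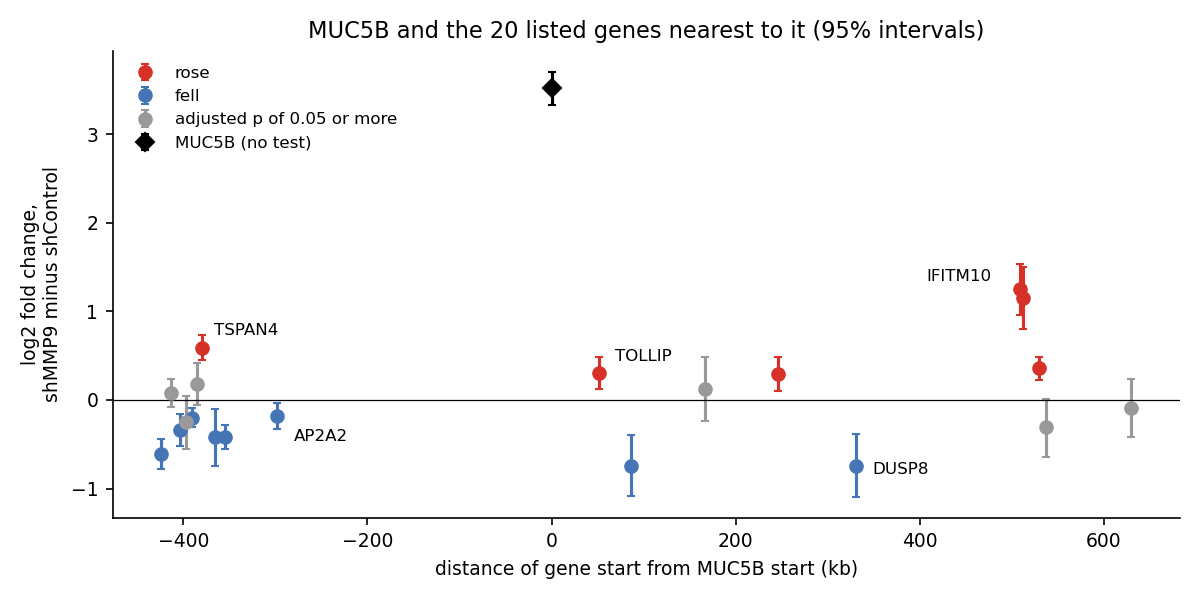
Log2 difference (y axis, shMMP9 minus shControl, with 95% intervals) of MUC5B (black, no test) and its 20 nearest listed genes against the distance of their starts from that of MUC5B in kb (x axis). The neighbours lie between -0.74 and 1.25, and MUC5B, picked by its difference, stands at 3.52.

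Mucin proteins need O-linked sugars, which polypeptide GalNAc-transferases start. Of 14 tested genes of this family 3 rose and 7 fell, with a median of -0.39, beside 25.0% rising, 32.5% falling and a median of -0.05 over all genes tested. The same all-gene values stand beside each of the lists that follow, and nothing particular to a list is read from its count. These all-gene shares depend on the scaling, as given in the last section. GALNT18 fell from 23.6 ± 0.829 to 11.8 ± 0.186 (log2 difference -0.95, adjusted p = 1.77e-07, limma), GALNT6 fell by 0.87 and GALNT14 fell by 0.81. GALNT5 rose from 3.73 ± 0.406 to 10.0 ± 0.724 (log2 difference 1.22, adjusted p = 8.80e-07, limma). GALNT2, the most abundant member, named after its values were seen, rose from 274.0 ± 18.8 to 376.5 ± 14.9. The summed level of the listed members was therefore higher in shMMP9 (569 to 579) than in shControl (510 to 548) although more members fell than rose.

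Enzymes that extend, branch and cap these sugars were split, with 5 of 14 tested members rising and 5 falling (median -0.14; 71.4% called, against 57.5% of all genes). The sialyltransferase gene ST3GAL1, which caps the core disaccharide, rose from 41.5 ± 1.82 to 68.9 ± 2.71 (log2 difference 0.72, adjusted p = 1.74e-07, limma), and ST3GAL4 rose by 0.30. GCNT3, a branching enzyme of mucus-secreting tissue, fell from 1.1 ± 0.119 to 0.245 ± 0.0474, and the sialyltransferase gene ST6GALNAC3 fell by 0.67. GCNT3, at 6 to 8 estimated reads per shMMP9 library, passed the low filter through shControl alone. C1GALT1, which makes the core disaccharide, and its chaperone C1GALT1C1, both named after their values were seen, had log2 differences of 0.16 (adjusted p = 0.0334, limma) and 0.32 (adjusted p = 0.0210, limma). The count of rises was 3 without shControl replicate 2 or shMMP9 replicate 2 or 3, and 2 without shMMP9 replicate 1 or without a variance trend. The C1GALT1 call ended in all of these (adjusted p = 0.0515 to 0.103) and with the replicate block (adjusted p = 0.0591). The C1GALT1C1 call ended without shControl replicate 2 or 3 or shMMP9 replicate 1 or 2, or without a trend (adjusted p = 0.0549 to 0.0969).

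Of 13 tested mucin-type glycoproteins that bear other names, 8 fell and 3 rose (median -0.34), a called share of 84.6% against 57.5% of all genes. PDPN, the sialoglycoprotein podoplanin, went from 9.02, 9.33 and 9.63 in shControl to 0.336, 0.198 and 0.406 in shMMP9 (log2 difference -2.98, adjusted p = 2.44e-10, limma). At 5 to 11 estimated reads per shMMP9 library, shMMP9 alone would not have brought PDPN past the low filter. The sialomucin gene PODXL fell from 136.3 ± 5.80 to 57.2 ± 2.18 and its relative PODXL2 fell by 0.95. SPN, a leukocyte sialomucin, fell from 6.19 ± 0.779 to 1.6 ± 0.344. The 4 genes named here, those of lowest adjusted p, went opposite to MUC5B and MUC1, while the 3 that rose did not.

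Proteins outside the mucins that share the von Willebrand factor D domain were mostly low. Of 5 tested members 2 fell and 0 rose (limma; also 0 rises at an unadjusted p under 0.05 and 0 by limma-voom), with a median of -0.15 and a called share of 40.0% against 57.5% of all genes. SUSD2 fell from 17.2 ± 2.69 to 5.62 ± 0.586, and FCGBP, a protein bound to mucus gels, from 5.0 ± 0.956 to 2.26 ± 0.420. VWF itself stood at 1.01 ± 0.434 in shControl and 0.811 ± 0.343 in shMMP9 (adjusted p = 0.501, limma), and OTOGL, an inner-ear mucin-like protein, at 0.564 ± 0.201 and 0.50 ± 0.244 (adjusted p = 0.738, limma).

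All 12 tested binding partners and sheddases of mucins were called, 6 in each direction, with a median of 0.02, where 57.5% of all genes were called. The receptor gene ERBB3 went from 84.1 ± 4.27 to 349.0 ± 2.84 (log2 difference 2.04, adjusted p = 2.00e-12, limma), and MMP14, a protease that sheds MUC1, rose by 0.84. EGFR fell by 1.16 and ICAM1, an adhesion receptor that binds MUC1, fell by 0.81. Of the direct ligands, both named after their values were seen, the galectin gene LGALS3 rose from 20.1 ± 1.76 to 38.6 ± 0.477, and the mesothelin gene MSLN fell from 7.60 ± 0.614 to 1.64 ± 0.315.

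Transcription factors reported at mucin genes had 8 rises and 2 falls among 18 tested members (median 0.21), and their called share of 55.6% was close to the 57.5% of all genes. STAT3 rose by 0.56 and STAT6 by 0.28, while HIF1A fell by 0.46. FOXA1, an epithelial pioneer factor, fell from 6.38 ± 1.13 to 0.868 ± 0.213 (log2 difference -1.98, adjusted p = 9.41e-08, limma). SPDEF and FOXA3, which promote mucous cell differentiation, and FOXA2 are not listed.

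**Figure D4:**
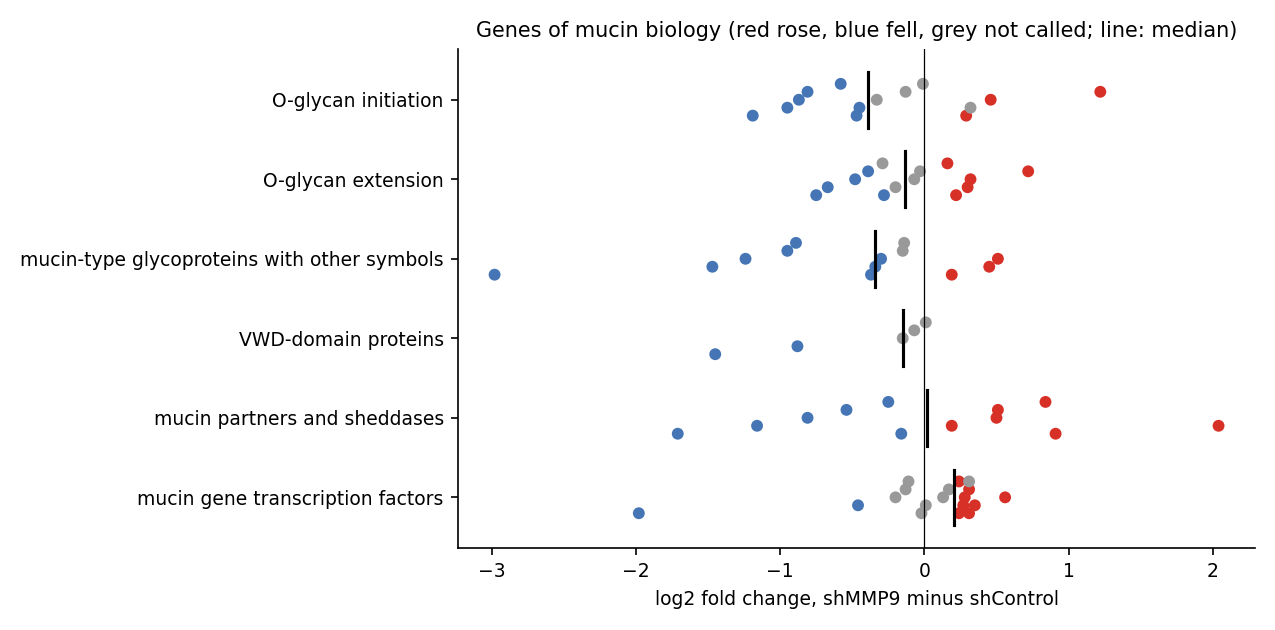
Log2 difference (x axis, shMMP9 minus shControl) of each tested gene of 6 lists, in rows, with red for rises, blue for falls, grey for genes not called and a black line at the median. The medians run from -0.39 for the GalNAc-transferases to 0.21 for the transcription factors, and every row spans both sides of 0, though the row of von Willebrand factor D domain proteins reaches only 0.01 and holds no rise.

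Markers of mucous secretory epithelium had overlapping summed levels in the 2 groups, while single markers changed in both directions. Of 24 markers 8 were listed, and the unlisted 16 include AGR2, SPDEF, TFF1, TFF3, SCGB1A1 and PIGR. Their summed level was 25.7 to 28.2 in shControl and 25.5 to 26.6 in shMMP9, and the part of such cells in the result was not tested. Of 7 tested, 2 rose and 3 fell, a called share of 71.4% against 57.5% of all genes. Besides FCGBP, described above, LYZ rose by 1.29, CREB3L1 fell by 1.44 and LTF fell by 1.19. CREB3L4, the largest part of the sum, named after its values were seen, rose from 11.8 ± 0.341 to 14.5 ± 0.957. LTF, at 2 to 3 estimated reads per shMMP9 library, passed the low filter through shControl alone. Of 15 general epithelial markers 7 were listed, with a summed level of 48.0 to 52.4 in shControl and 37.2 to 41.1 in shMMP9. Of 5 tested, 1 rose and 2 fell, beside 25.0% and 32.5% of all genes. CLDN4 fell from 38.3 ± 2.01 to 18.5 ± 1.11 and the epithelial transcription factor ELF3 fell by 2.17, while KRT14 rose from 4.04 ± 0.482 to 19.7 ± 1.53. The splicing regulator gene ESRP2 stood at 0.484 ± 0.199 in shControl and 0.277 ± 0.108 in shMMP9 (adjusted p = 0.209, limma), and CDH1 and GRHL2 are not listed.

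The genes most like MUC5B were found by the distance between log2 profiles set to 0 at their shControl mean, over 6 libraries that share their 2 groups. The nearest was the neurotensin receptor gene NTSR1, at a distance of 0.335, followed by PRRX1 (0.558), PRSS3 (0.585), RXRG (0.811) and PDK4 (0.868). Their log2 differences ran from 3.03 for PDK4 to 3.42 for NTSR1. They lie on chromosomes 20, 1, 9, 1 and 7, and none is on chromosome 11. PRSS3 has close homologues that could share its reads.

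**Figure D5:**
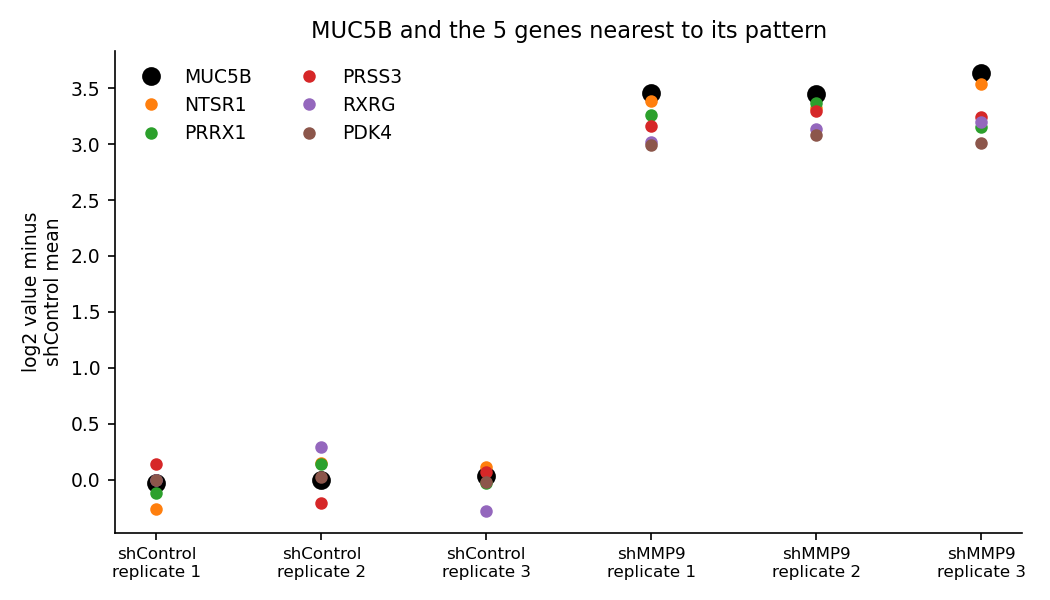
Log2 value minus the gene's shControl mean (y axis) in each of the 6 libraries (x axis) for MUC5B (black) and the 5 genes nearest to it. The shControl values lie between -0.28 and 0.29 and the shMMP9 values between 2.99 and 3.64.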

How the data were processed

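RNA from 6 A375 libraries was analysed from 1 deposited table. The aligner STAR (version 2.6.1d), Partek and the build hg38 are named in the submitters' processing notes, while the sources used here give no counting method, annotation or strand setting. The authors deposited log2 values, and from the values themselves these are log2(scaled count + 1) with a common 75th percentile. Most values were whole multiples of 1 step per library (64.4 to 67.7% within 0.01 reads), which gave estimated reads. No value lay below 1 step and each gene reached at least 11 steps in 1 library, as when 1 read had been added to every count.

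Because the unit is a log value, limma 3.58.1 (R 4.3.3) with a variance trend was fitted to the log2 values of all genes with 10 reads at median depth in 3 libraries and 15 in total (17194 kept, 1345 removed). P-values were adjusted by Benjamini-Hochberg over all of them, with a threshold of 0.05. As 3 libraries suffice, a gene could pass the filter through 1 group alone, as GCNT3, LTF and GPR143 did through shControl and SLC45A2 through shMMP9. Other list members passed through shControl or shMMP9 alone, and their calls also count in the lists. On simulated data for this comparison (17194 genes) the fit recovered 85.1% of 1.5-fold and 100% of 2-fold changes, with 13 false calls. The changed genes all had a mean scaled count of 2 or more, and far fewer were changed than were called in the data. The same relative spread was set for all genes. Recovery in lower genes, such as VWF and OTOGL, was not simulated. Positions, lengths and sequences came from GENCODE 29 (GRCh38).

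The members and 9 lists were chosen with earlier results of these data known. Named were every mucin, MMP9, for each list the 4 genes of lowest adjusted p, the 10 listed genes nearest to MUC5B on each side (some are given by count only), and the 5 genes nearest to its pattern. Figures used matplotlib 3.10.9.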

Additional observations from a re-analysis of the deposited data

How the results depend on the processing

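The limits of these values are depth and scale. Mucins other than MUC5B rest on 1 to 179 estimated reads per library, and log2(scaled count + 1) compresses changes at such levels. For MUC5B the log2 difference of 3.52 became 3.85 (limma-voom), 3.76 (pseudocount 0.25) or 2.85 (pseudocount 4). Without the low filter, 2 of the 6 mucins besides MUC5B rose and 1 fell, as MUC20 and MUC19 entered the test. In that fit 4355 of all 18539 listed genes rose and 5723 fell, and nothing about mucins as a family is read from the count. Of the 14 tested O-glycan extension genes 2 rose without a variance trend, and 2 to 4 without 1 library, against 5. Over all 17194 genes tested, 4072 rose without a variance trend and 3759 to 4511 without 1 library, against 4304. Scaling mattered more: 5013 rose and 4875 fell with median-of-ratios scaling, and 4988 and 4898 with total-read scaling, against 4304 and 5584. The excess of falls in the all-gene shares set beside each list therefore depends on the deposited scaling. Leaving out 1 library turned the direction of uncalled genes: RPLP2 ran from -0.01 to 0.16, BRSK2 from -0.05 to 0.24, LSP1 from -0.25 to 0.04, OTOGL from -0.18 to 0.08 and VWF from -0.28 to 0.02. Of 910 comparisons of 65 single genes with an alternative, 878 kept direction and side of the threshold, 23 lost the call and 3 gained it, and 6 turned. Taking 1 step off every value, chosen after seeing the data, changed no call among the single genes compared. Over all genes it gave 4301 rises and 5590 falls, against 4304 and 5584. Same-numbered libraries did not deviate together (correlations over genes 0.11, -0.25 and 0.01), so the numbers were not taken as pairs. With the replicate number as a block, 4211 genes rose and 5486 fell, against 4304 and 5584, and MUC1 stood at 0.45 (adjusted p = 0.00959, limma). The longest transcript as the length, also chosen later, gave MUC5B 0.191 and 2.78 per kb in place of 0.184 and 2.68.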
